A study of Homo sapiens with 6 samples.

Results

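AP-1 and other immediate early genes were followed across 6 arrays of a human kidney cell line. The set holds 45 genes: the FOS and JUN families that make up the transcription factor AP-1, further early transcription factors, and the phosphatases, RNA-binding proteins, secreted factors and other effectors induced with them. Members were found as the probe sets whose single gene symbol in the annotation of the array is a member's symbol. There were 102 such probe sets for 44 members, and none for BTG2. Of these, 76 passed the filter on dim signal and represented 41 members, of 12269 genes measured in the same way. FOSB, ZFP36 and ARC had only dim probe sets, and no changes are given for them.

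Immediate early genes are transcribed within minutes of a stimulus such as serum, a growth factor, stress or the handling of a culture, without new protein synthesis. Kinase cascades act on factors already bound at their promoters, such as SRF with its ternary complex partners and CREB, and the resulting mRNAs are short-lived. Their products include activators, such as JUN, and inhibitors that end the signal, such as the phosphatase DUSP1. Many of these mRNAs carry AU-rich elements that are read by RNA-binding proteins.

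Cells had been transfected with the empty vector (mock), with hIMP1 wt or with hIMP1 Dmut, and total RNA of each sample was hybridised to an array of its own, 2 arrays a group. IMP1, the product of IGF2BP1, binds mRNAs in the cytoplasm. What Dmut denotes, which cell line was used, how long the cells carried the construct and whether any stimulus was given are not stated in the labels. Each sample title carries a number, 1 or 2, taken here as the replicate number, so that every group has 1 array of each number, and the labels do not say whether a number marks a culture, a day or a batch. Separate cultures are not stated either, so a p-value here weighs a difference against array-to-array spread that may be purely technical. Each array read the pooled RNA of its sample, in which fewer cells with a transcript and less of it per cell cannot be told apart.

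Intensities are on a linear scale, with a median of 26.7 to 33.7 per array, and 6 arrays limit the precision of every value. Changes are on the log2 scale of the intensity plus an offset of 9.04, with the standard error (SE) after the sign ±, and a fold is given on that same scale, which understates the change of dim probe sets. A probe set was called at an adjusted p under 0.05 in a limma fit over all 27307 kept probe sets. Arrays sharing a number were more alike (r over those probe sets of 0.970 to 0.980) than arrays sharing a group (0.963 to 0.964). The main fit for the constructs held no term for the number. The SE of a construct difference thus takes in the difference between the numbers. Among the markers of the labelled tissue, 5 of 13 genes of kidney epithelium and its lineage were kept, with PAX8 at 148 to 287 and WT1 at 142 to 235, while PAX2, LHX1, CDH16, AQP1, SLC12A1 and SLC12A3 were below the filter. Of 5 epithelial markers 4 were kept, and the keratin gene KRT18 was the brightest of them, at 1149 to 1356. Another keratin gene of that list, KRT19, was below the filter. Of 7 blood markers 2 were kept, of 4 endothelial markers 1 and of 7 fibroblast markers 2.

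Member probe sets were called between the replicate numbers, and none between the constructs. On the 3 arrays numbered 2, DUSP1, ATF3, IER2, MAFF, JUN, CSRNP1 and FOSL2 fell by 0.51 to 1.30 on the log2 scale against the 3 arrays numbered 1, and HES1 rose by 0.49, at the brightest probe set of each. In the limma fit with group and number as terms, 14 of the 76 member probe sets were called, or 18.4%, against 5.71% of all 27307 probe sets. Of these 12 were lower, 15.8% of the member probe sets against 2.9% over all, and 2 were higher, where 2.81% of all probe sets were called higher. Counting every probe set, 10 genes were called, 8 lower and 2 higher. The share of all genes was not counted in this way. The 21 members with several kept probe sets have more chances of a call, so this count is not set against a background.

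On the arrays numbered 2, lower values were found for 5 of 6 AP-1 subunits, 10 of 12 other transcription factors and 7 of 10 feedback inhibitors. They were also found for 3 of 3 secreted factors, 5 of 7 other effectors and 1 of 3 RNA-binding and antiproliferative factors. All counts of lower members go by the sign alone. They take in FOS (-0.0028) and ID1 (-1e-04), which had both signs within the groups. Taking each gene at its brightest kept probe set, 31 of 41 members were lower and 10 higher, at a median of -0.21, while 47.8% of the 12269 measured genes were lower and their median was 0.02. Under median scaling, which moved the median of all genes to 0.12, 27 members were lower and 14 higher, at a median of -0.10, and of all called probe sets 437 were lower and 1016 higher in place of 791 and 767. Called lower were 7 members (17.1%; 2.49% of all genes) and called higher 1 (2.44%; 3.71% of all genes). Without adjustment, 18 members had a p under 0.05, 13 lower and 5 higher, where the background was 23.5% of all genes. The arrays of the numbers did not overlap for 17 members that were lower (41.5%, against 13.1% of all genes) and 5 that were higher (12.2%, against 17.4%).

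The direction was alike in the 3 groups taken alone. The median of the members was -0.24 within mock, -0.34 within hIMP1 wt and -0.22 within hIMP1 Dmut, where all genes had medians between 0.01 and 0.04. Lower within each of the 3 groups were 20 of 41 members (48.8%), against 19.7% of all genes, and higher within each were 7 (17.1%), against 24.7%. With each gene set relative to its own 6-array mean, the median member stood at 0.08, 0.10 and 0.14 on mock 1, hIMP1 wt 1 and hIMP1 Dmut 1, and at -0.26, -0.14 and 0.07 on mock 2, hIMP1 wt 2 and hIMP1 Dmut 2. hIMP1 Dmut 2 was thus close to the arrays numbered 1 in this measure, and mock 2 was the lowest array.

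**Figure D1:**
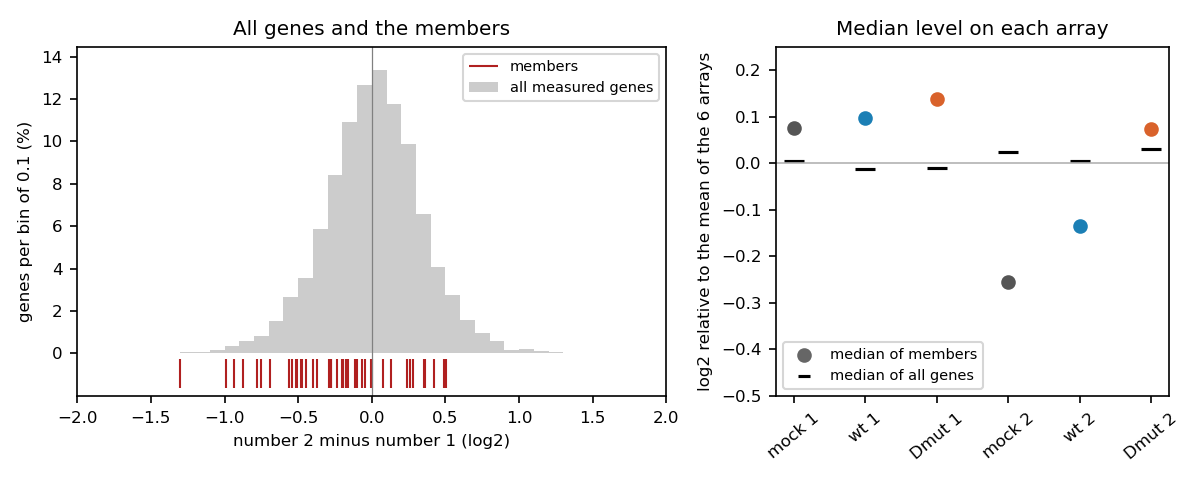
Left, the difference between the numbers (number 2 minus number 1, log2) for all 12269 measured genes as a histogram in percent of genes, with each of the 41 measured members as a red tick; the ticks extend further to the left than to the right of 0, to -1.30 for MAFF and 0.50 for NFKBIA. Right, the median of the members (points, coloured by group) and of all genes (dashes) on each array, in log2 relative to the 6-array mean of each gene; mock 2 is the lowest point at -0.26 and hIMP1 Dmut 2 stands at 0.07.

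The calls between the numbers rest on a small design, with 2 residual degrees of freedom and a prior worth 10.5. With a variance prior that takes no account of intensity, 0 member probe sets and 0 of all 27307 were called by limma, although 35 member probe sets kept an unadjusted p under 0.05; without the filter 5 were called, and between 4 and 26 when an array was left out. Leaving out mock 1 gave 5, mock 2 gave 5, hIMP1 wt 1 gave 5, hIMP1 wt 2 gave 4, hIMP1 Dmut 1 gave 26 and hIMP1 Dmut 2 gave 25. The ratio of 3' to 5' control signal for ACTB, a reading of RNA integrity and labelling, moved with the number: 1.44 to 1.52 on the arrays numbered 1 and 1.57 to 1.67 on those numbered 2. For GAPDH it was 1.03 to 1.16 and 1.13 to 1.17. Of 6 neuronal and adrenal markers 2 were kept (NEFM, NEFH, STMN2 and TH were not). The summed intensity of the list was 1249 to 1394 on the arrays numbered 1 and 1553 to 1681 on those numbered 2. Most of this sum was 1 gene, NEFL, at 1080 to 1227 and 1332 to 1492, which was not called between the numbers (0.34 ± 0.11). INA, the other kept marker, read 110 to 171 over the 6 arrays and was not called. The part of RNA quality or of these transcripts in the difference was not tested.

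Among the constructs, no member probe set was called in any comparison. The limma fit called 0 of 76 with hIMP1 wt against mock, where 2 of all 27307 probe sets (0.00732%) were called, 0 with hIMP1 Dmut against mock (also 0.00732% over all) and 0 with hIMP1 Dmut against hIMP1 wt (0% over all). At an unadjusted p under 0.05 there were 281, 387 and 337 of all 27307 probe sets, and 0, 3 and 2 of the member probe sets. With hIMP1 Dmut against mock these were FOSL1 (0.89 ± 0.40), a dimmer probe set of JUN (0.91 ± 0.37) and one of GADD45B (0.80 ± 0.36). With hIMP1 Dmut against hIMP1 wt they were dimmer probe sets of DUSP1 (-0.94 ± 0.40) and MAFF (1.32 ± 0.49), each of the opposite sign to the brightest probe set of its gene. By gene, at the brightest probe set, the counts were 0, 1 (FOSL1) and 0, against 0.856%, 1.34% and 1.01% of all genes. FOSL1 was below the level of the filter on both mock arrays and was kept through the arrays of the constructs. The hIMP1 wt and hIMP1 Dmut comparisons share the mock arrays and are set side by side only.

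Most members were on the higher side in hIMP1 Dmut. Against mock, 35 of 41 lay above and 6 below, at a median of 0.15 (all genes -0.01). Number 1 alone gave a median of 0.09 and number 2 alone 0.33. Under median scaling the counts were 27 and 14. Against hIMP1 wt, 31 lay above and 10 below, at a median of 0.13 (all genes 0.01) and 0.05 and 0.20 within the numbers. Median scaling made these counts 22 and 19 and the median 0.01, with all genes at -0.11. For hIMP1 wt against mock the counts were 28 and 13 and the median 0.07 (all genes -0.01), with 0.04 and 0.10 within the numbers. Without mock 2 or hIMP1 wt 1 the median for hIMP1 wt was -0.08, while without mock 1 it was 0.20 and without hIMP1 wt 2 it was 0.18. For hIMP1 Dmut against mock it was 0.02 without mock 2 and 0.32 without mock 1. For hIMP1 Dmut against hIMP1 wt it was 0.02 without hIMP1 wt 2 and 0.22 without hIMP1 wt 1.

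Members whose pairs of arrays did not overlap were few. With hIMP1 wt against mock FOSL1, JUND, KLF6, ZFP36L1 and SPRY2 were higher on both arrays (12.2% of the members, against 8.67% of all genes) and KLF2 and PHLDA1 lower on both (4.88%, against 11%). With hIMP1 Dmut against mock FOSL1, FOSL2, JUND, CCN1, SPRY2 and RGS2 were higher (14.6%, against 11.2%) and ID1 lower (2.44%, against 12%). With hIMP1 Dmut against hIMP1 wt KLF10, CCN1 and PHLDA1 were higher (7.32%, against 12%) and KLF6 lower (2.44%, against 8.75%). Within both numbers the same sign was found for 16 members higher and 6 lower with hIMP1 wt (all genes 22.8% and 27.8%), for 19 and 2 with hIMP1 Dmut against mock (22.2% and 23.2%), and for 18 and 5 with hIMP1 Dmut against hIMP1 wt (23.8% and 19.1%). In percent of the members these are 39% and 14.6%, 46.3% and 4.88%, and 43.9% and 12.2%.

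**Figure D2:**
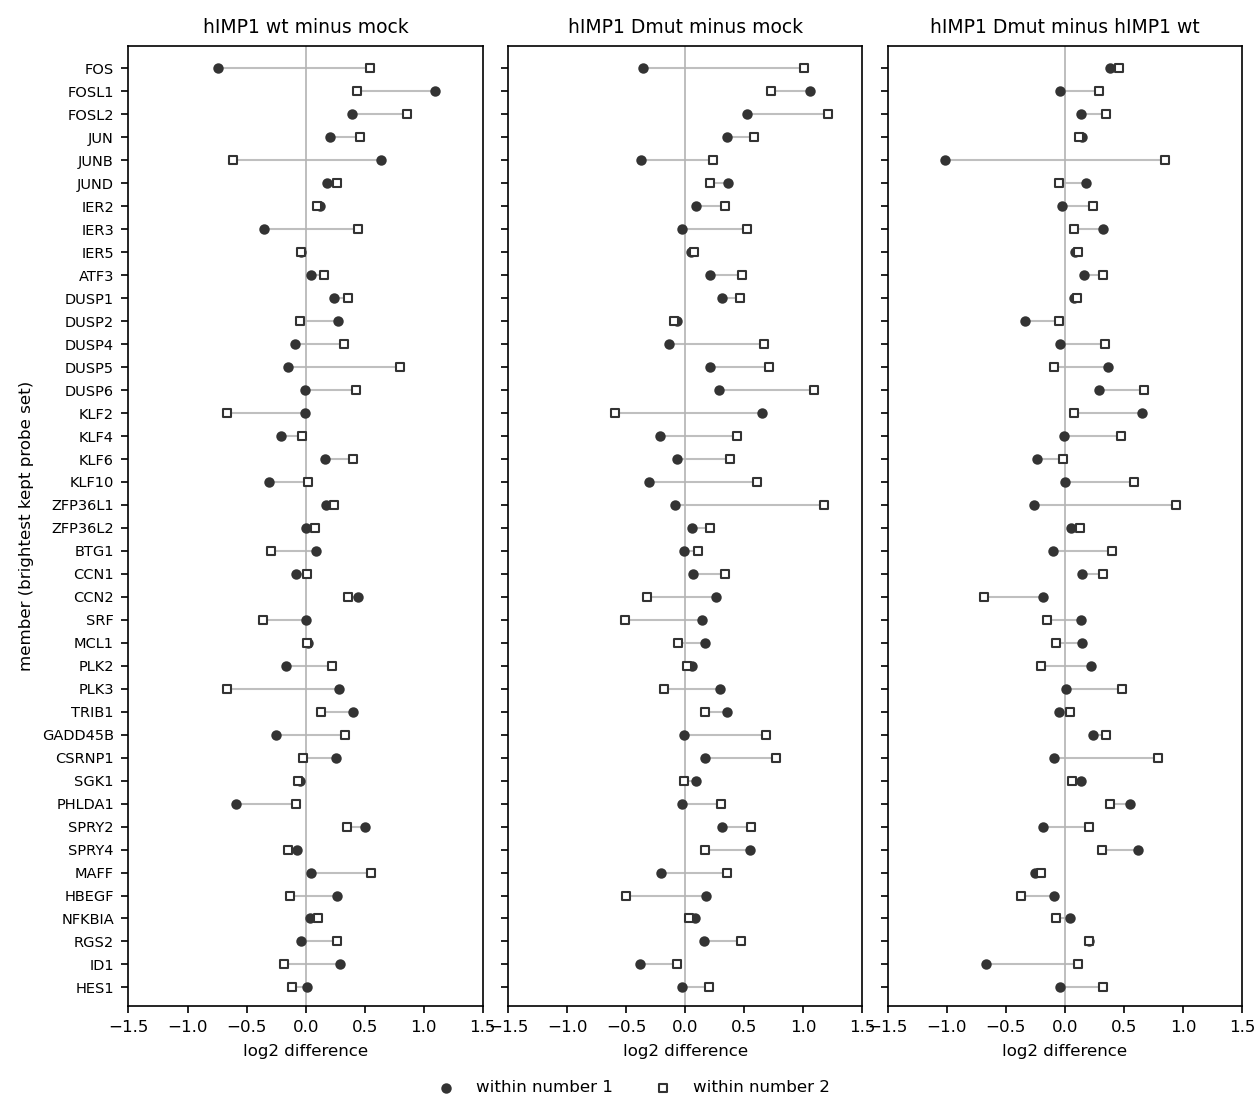
Difference between the constructs for each of the 41 measured members at its brightest kept probe set (log2 of intensity plus offset), in a panel for each comparison. Filled circles are the difference within the arrays numbered 1 and open squares that within the arrays numbered 2, joined by a line; FOSL1, FOSL2, JUN, JUND and SPRY2 lie right of 0 at both points in the panels against mock, while FOS and JUNB have points on both sides.

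AP-1 is a dimer of a JUN protein with a FOS or another JUN protein. In the following, 3 values are in the order mock, hIMP1 wt, hIMP1 Dmut. JUN, the main activating partner, read 1956, 2264 and 2503 on the arrays numbered 1 and 1230, 1696 and 1842 on those numbered 2. All 3 arrays numbered 2 lay below all 3 numbered 1, and within each number mock was the lowest and hIMP1 Dmut the highest. JUN fell between the numbers by 0.51 ± 0.11, or 1.42-fold (adjusted p = 0.0250), and a second probe set of JUN was called as well (-0.52 ± 0.13, adjusted p = 0.0345). Against mock the difference was 0.34 ± 0.25 for hIMP1 wt and 0.47 ± 0.25 for hIMP1 Dmut, neither called, and between the constructs it was 0.13 ± 0.25, with -0.04 at another probe set.

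FOSL2, a FOS family member that lacks the strong activation domain of FOS, read 102, 137 and 151 on the arrays numbered 1 and 40.7, 81.3 and 106 on those numbered 2. Its mock arrays were the lowest within each number, and the numbers overlapped, since hIMP1 Dmut 2 lay above mock 1. FOSL2 fell between the numbers by 0.78 ± 0.21 (adjusted p = 0.0469), a call lost under quantile scaling (adjusted p = 0.0519) and cyclic loess scaling (0.0508). The difference from mock was 0.63 ± 0.41 for hIMP1 wt and 0.87 ± 0.41 for hIMP1 Dmut, and between the constructs 0.24 ± 0.41, with -0.18 and -0.17 at its other probe sets.

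FOSL1, which codes for the FOS-related protein FRA1, was near the array median. It read 20.1, 53.4 and 51.6 on the arrays numbered 1 and 19.3, 29.4 and 37.8 on those numbered 2, so that both mock arrays were below all 4 others. The difference from mock was 0.77 ± 0.40 for hIMP1 wt and 0.89 ± 0.40 for hIMP1 Dmut (adjusted p = 1), and between the numbers -0.37 ± 0.32. Among the brightest kept probe sets of the members these were the largest statistics against mock, and they did not pass. Both mock arrays of FOSL1 lie below the level of the filter. FOSL1 was thus kept only through the arrays of the constructs, where it is higher, and its place in this ranking is not independent of that.

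JUND, the JUN family member that is expressed without stimulation, read 1112, 1261 and 1432 on the arrays numbered 1 and 985, 1185 and 1142 on those numbered 2. It differed from mock by 0.22 ± 0.18 with hIMP1 wt and 0.29 ± 0.18 with hIMP1 Dmut, and both mock arrays were below all others. Between the constructs the brightest probe set gave 0.06 ± 0.18 and the others -0.29 and -0.27, and between the numbers the value was -0.20 ± 0.11.

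FOS and JUNB showed no order by number, and neither construct kept to the same side of mock within both numbers. FOS, the classic immediate early gene, read 48.8, 25.5 and 36 on the arrays numbered 1 and 22.2, 36.6 and 53.7 on those numbered 2, with a difference of -0.003 ± 0.35 between the numbers. JUNB read 69.8, 114 and 51.9 and then 87.2, 54 and 105, with 0.07 ± 0.30 between the numbers. Within the groups JUNB differed by 0.29, -0.97 and 0.90, that is, in both directions. For hIMP1 Dmut against hIMP1 wt FOS gave 0.42 ± 0.42, with 0.38 and 0.46 within the numbers. JUNB gave -0.08 ± 0.40, with -1.01 and 0.85, and neither was called. FOSB was below the filter, at 12.6, 6.33 and 2.26 on the arrays numbered 1 and 23, 7.03 and 4.27 on those numbered 2. At so dim a signal no order of the constructs is read from FOSB. Of the 6 measured subunits 2 were called between the numbers (33.3%) and 5 were lower by sign, FOS included, with a median of -0.28. Of all genes 2.49% were called lower and 47.8% were lower, with a median of 0.02.

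Of the other transcription factors, ATF3, a stress-induced factor that pairs with JUN proteins, was called at all 3 of its probe sets. At the brightest it read 1937, 1998 and 2238 on the arrays numbered 1 and 961, 1073 and 1345 on those numbered 2. No array numbered 2 reached the lowest of the others. ATF3 fell between the numbers by 0.88 ± 0.11, or 1.83-fold (adjusted p = 0.00246), with -1.004, -0.89 and -0.73 within mock, hIMP1 wt and hIMP1 Dmut. The other probe sets of ATF3 gave -1.25 ± 0.13 (adjusted p = 7.94e-04) and -0.93 ± 0.24 (adjusted p = 0.0448). With the constructs it was 0.10 ± 0.38 and 0.34 ± 0.38 against mock.

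IER2, a nuclear protein induced early by growth factors, read 1123, 1222 and 1200 on the arrays numbered 1 and 718, 770 and 909 on those numbered 2, again without overlap. It fell by 0.57 ± 0.11, or 1.48-fold (adjusted p = 0.0177), and its differences from mock were 0.11 ± 0.28 and 0.22 ± 0.28. MAFF, a small MAF protein without an activation domain, read 78, 80.9 and 66.5 on the arrays numbered 1 and 18.6, 31.5 and 26.3 on those numbered 2. MAFF fell by 1.30 ± 0.28, or 2.46-fold (adjusted p = 0.0227), and its other kept probe set gave -0.70 ± 0.34 (adjusted p = 0.244). The brightest probe set of MAFF was near the array median on the arrays numbered 2. Its mean over those arrays alone lies below the filter, so it was kept through the arrays numbered 1, where it is high. For hIMP1 wt against mock the 2 probe sets differed in sign, with -0.73 at the other against 0.30 at the brightest. CSRNP1, a nuclear factor first found as a gene induced by AXIN, read 130, 158 and 147 and then 58.6, 57.5 and 106, and fell by 0.94 ± 0.21 (adjusted p = 0.0280).

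HES1, a repressor that mediates Notch signalling, was the only member called higher at its brightest probe set. It read 1055, 1063 and 1034 on the arrays numbered 1 and 1449, 1334 and 1672 on those numbered 2, without overlap. The difference was 0.49 ± 0.12, or 1.40-fold (adjusted p = 0.0322), and against mock it was -0.05 ± 0.25 for hIMP1 wt and 0.09 ± 0.25 for hIMP1 Dmut, with opposite signs at the other kept probe set of HES1 (0.04 and -0.0066). At that probe set the difference between the numbers was 0.15 ± 0.17 (adjusted p = 0.657), and within mock, hIMP1 wt and hIMP1 Dmut it was -0.0071, -0.33 and 0.79, so the call was not shared by it.

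The calls of single members differed in how far they held. DUSP1 and ATF3 were called with each array left out in turn. IER2, MAFF, JUN, FOSL2, CSRNP1 and HES1 lost the call without any single array of mock or of hIMP1 wt (adjusted p of 0.0726 to 0.304). Without the filter MAFF, JUN, FOSL2, CSRNP1 and HES1 were not called (0.0588 to 0.115). All 8 lost it without the intensity trend, at adjusted p-values of 0.165 to 0.201. Under median scaling JUN (adjusted p = 0.342), IER2 (0.217) and HES1 (0.0872) were not called. With the mean of all kept probe sets of a gene, DUSP1 (-0.60, adjusted p = 0.0531), MAFF, FOSL2 and HES1 were not.

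SRF, which binds the serum response element, was lower on the arrays numbered 2 without passing: it read 193, 194 and 214 and then 184, 142 and 127, a difference of -0.40 ± 0.17 (adjusted p = 0.185). KLF6, a zinc finger factor of the KLF family, read 263, 296 and 250 and then 216, 287 and 284. It differed from mock by 0.28 ± 0.21 with hIMP1 wt, with -0.12 at another probe set, and by -0.13 ± 0.21 between hIMP1 Dmut and hIMP1 wt, where 3 other probe sets gave the opposite sign (0.13 to 0.55). KLF2, which is induced by shear stress in endothelium, read 105, 105 and 171 and then 146, 88.6 and 93.8, and hIMP1 Dmut differed from hIMP1 wt by 0.36 ± 0.32 with a sign set by hIMP1 Dmut 1 (-0.04 without it). KLF10, induced by TGF-beta, read 979, 788 and 788 and then 602, 611 and 923, with 0.29 ± 0.25 for that comparison. ID1, an inhibitor of basic helix-loop-helix factors, read 623, 762 and 475 and then 647, 568 and 615, with -0.28 ± 0.21. None of these was called. The remaining factors of this role were KLF4, with -0.24 ± 0.16 between the numbers, and IER5, with 0.24 ± 0.11 and no overlap between the numbers.

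**Figure D3:**
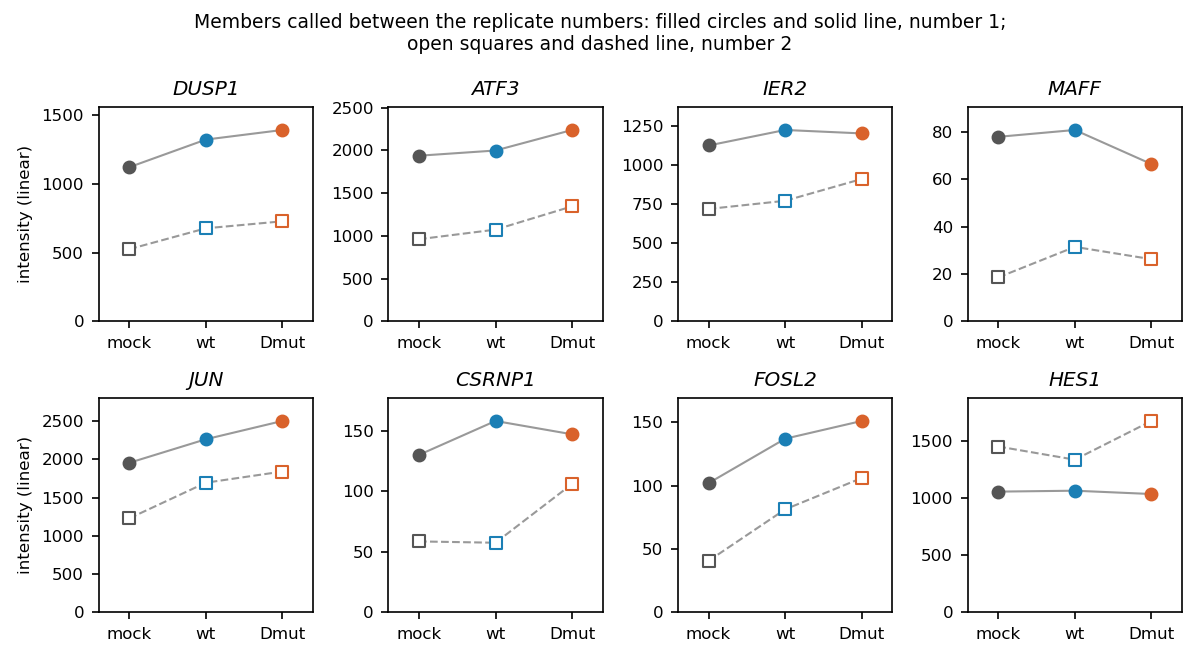
Linear intensity, on axes that start at 0, of the 8 members called between the replicate numbers at their brightest probe set, for mock, hIMP1 wt and hIMP1 Dmut. Filled circles joined by a solid line are the arrays numbered 1 and open squares joined by a dashed line those numbered 2. The squares lie below the circles within each group for all but HES1, where they lie above.

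Feedback inhibitors of kinase signalling were led by DUSP1, the nuclear phosphatase that switches off p38, JNK and ERK. It read 1123, 1324 and 1394 on the arrays numbered 1 and 526, 678 and 729 on those numbered 2. The highest array numbered 2 was below the lowest numbered 1 by a wide gap, and within each number mock was the lowest. DUSP1 fell by 0.99 ± 0.11, or 1.98-fold (adjusted p = 0.00127), with -1.08, -0.96 and -0.93 within mock, hIMP1 wt and hIMP1 Dmut, the narrowest range between groups among the 8 members called at the brightest probe set. Against mock it was 0.30 ± 0.42 with hIMP1 wt (0.24 and 0.36 within the numbers) and 0.39 ± 0.42 with hIMP1 Dmut (0.31 and 0.46). Both other probe sets of DUSP1 were dim, with 20.8 to 84.9 over the arrays, and one gave -0.37 with hIMP1 Dmut against mock. Between the numbers that one gave -0.39 ± 0.30 and the other -0.42 ± 0.33, neither called. The sign was reversed within hIMP1 Dmut at the one (0.18) and within hIMP1 wt at the other (0.15), and negative within the remaining groups. The call of DUSP1 was thus not shared by its dim probe sets.

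The other dual-specificity phosphatases lay on the lower side as well, without calls. DUSP6, which acts on ERK in the cytoplasm, gave -0.69 ± 0.30 between the numbers (adjusted p = 0.202), DUSP5 -0.48 ± 0.25, DUSP2 -0.44 ± 0.24 and DUSP4 -0.29 ± 0.26. The arrays of the numbers did not overlap for DUSP2, DUSP5 and DUSP6. The Sprouty proteins restrain receptor tyrosine kinase signals. SPRY4 read 42.6, 40.1 and 66.6 and then 31.1, 27.1 and 36, with 0.47 ± 0.40 for hIMP1 Dmut against hIMP1 wt and -0.52 ± 0.29 between the numbers. SPRY2 read 170, 245 and 214 and then 146, 189 and 219. Both mock arrays of SPRY2 were below all others, by 0.43 ± 0.23 for each construct (adjusted p = 1).

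Against this direction, NFKBIA, the inhibitor that holds NF-kappaB in the cytoplasm, was higher on the arrays numbered 2 in each group (0.50, 0.56 and 0.45), at 0.50 ± 0.14 and just short of the threshold (adjusted p = 0.0593). TRIB1, a pseudokinase that directs protein degradation, was higher by 0.36 ± 0.11 (adjusted p = 0.0841), with -0.53 at its dimmer kept probe set. RGS2, which limits G protein signals, gave 0.26 ± 0.16. In the role as a whole, 1 of 10 was called lower and none higher by limma, with 2 in each direction at an unadjusted p under 0.05 and a median of -0.37. Of all genes 2.49% were called lower and 3.71% higher, and 10.1% were lower and 13.4% higher at that unadjusted p.

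RNA-binding and antiproliferative factors had a positive median between the numbers (0.35 over 3 measured members). BTG1, which slows proliferation by recruiting deadenylases, rose at its second probe set (0.55 ± 0.12, adjusted p = 0.0283), which read 596, 765 and 700 and then 1055, 952 and 1005, while the brightest gave 0.35 ± 0.12 (adjusted p = 0.113). ZFP36L1 and ZFP36L2 bind AU-rich elements and promote mRNA decay. ZFP36L1 gave 0.42 ± 0.24, a value set by hIMP1 Dmut, where it was 1.24 against -0.02 in mock and 0.05 in hIMP1 wt. ZFP36L2 gave -0.21 ± 0.11 without overlap of the numbers. ZFP36 itself was below the filter, at 13.4, 38 and 60 on the arrays numbered 1 and 8.39, 26.9 and 21 on those numbered 2.

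Secreted factors were lower on the arrays numbered 2 for all 3 members, without calls. CCN2, a matricellular protein induced by TGF-beta and YAP, gave -0.75 ± 0.25 (adjusted p = 0.0997) and HBEGF, a ligand of the EGF receptor, -0.47 ± 0.21, both without overlap. CCN1, a related matricellular protein, gave -0.11 ± 0.15.

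Among the survival, kinase and other effectors, MCL1, a short-lived BCL2 family protein that protects from apoptosis, was lower at all 5 kept probe sets. It was called at 2 of them. At the first of these it read 1271, 1386 and 1546 and then 860, 975 and 857, a difference of -0.64 ± 0.12 (adjusted p = 0.0129). The other called probe set of MCL1 gave -0.84 ± 0.18 (adjusted p = 0.0232) and the brightest -0.28 ± 0.11 (adjusted p = 0.166). GADD45B, a stress-induced activator of the kinase MAP3K4, gave -0.54 ± 0.18 (adjusted p = 0.102) without overlap of the numbers. PHLDA1, a pleckstrin homology-like protein, had the largest statistic among the brightest kept probe sets for hIMP1 Dmut against hIMP1 wt, at 0.47 ± 0.33, with readings of 56, 34.2 and 54.6 and then 56, 52.4 and 71.1. Between the numbers its brightest probe set gave 0.28 ± 0.25 and its other kept one -0.58. SGK1, PLK2 and PLK3, which are kinases, and IER3, an early gene that affects survival, lay between -0.16 and 0.13. ARC, a cytoskeletal protein of neurons, was below the filter and read 4.55 to 39.4.

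**Figure D4:**
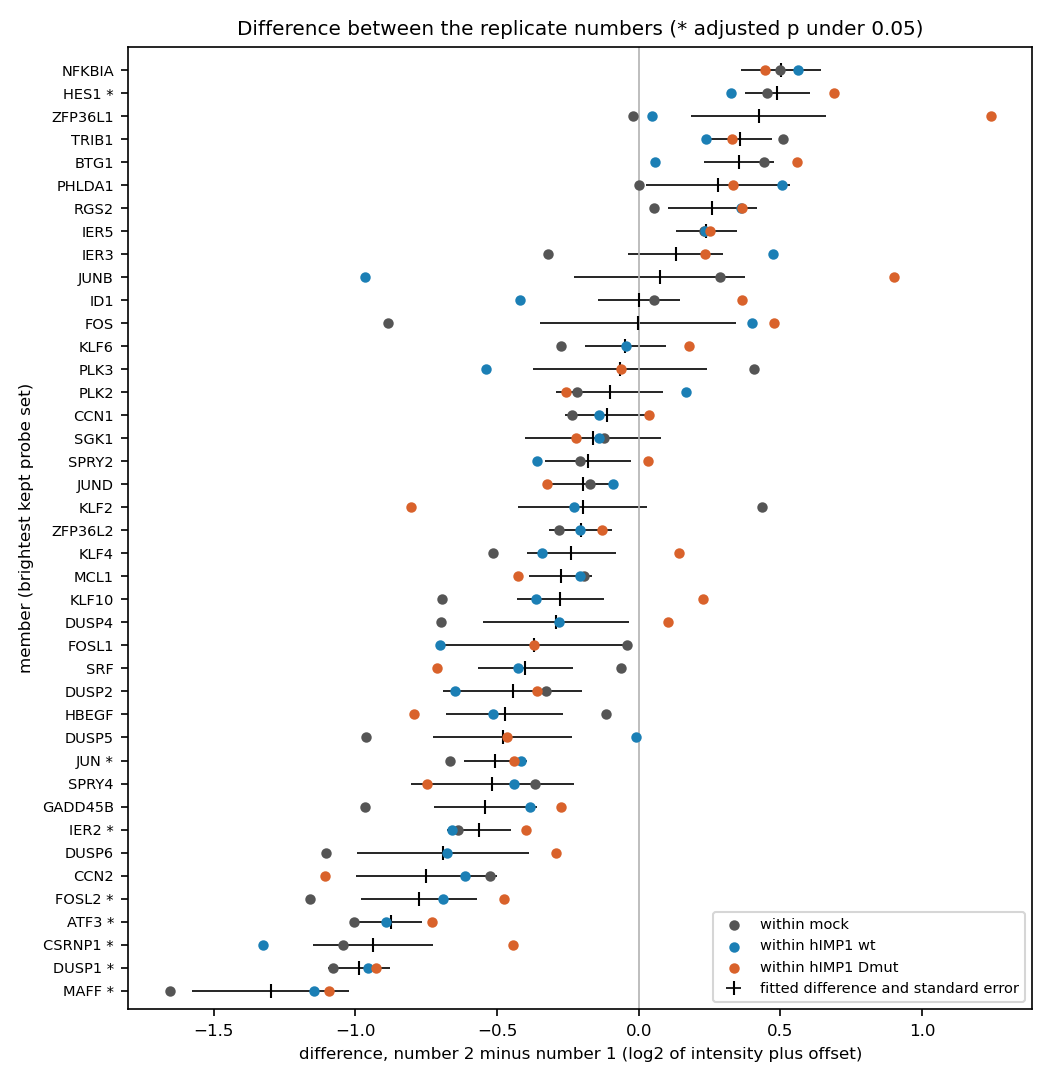
Difference between the replicate numbers (number 2 minus number 1, log2 of intensity plus offset) of the 41 measured members at the brightest kept probe set, in order of size. Black ticks with bars are the fitted difference and its standard error, points are the difference within mock, hIMP1 wt and hIMP1 Dmut, and an asterisk marks an adjusted p under 0.05. The 7 called lower run from MAFF at -1.30 to JUN at -0.51, with all 3 points left of 0, and HES1 stands at 0.49.

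The promoters of 4 called members are printed as examples of promoters of members that moved in each direction: DUSP1, JUN and IER2, which fell between the numbers, and HES1, which rose. The stretches are the 250 bases before the start of each gene in RefSeq on GRCh38.p14, 5' to 3' on the strand of the gene, upstream of the first exon: chr5:172771196-172771445 (minus strand) for DUSP1, chr1:58784048-58784297 (minus) for JUN, chr19:13150161-13150410 (plus) for IER2 and chr3:194135898-194136147 (plus) for HES1. Capitals mark matches to any of the motifs searched.
DUSP1: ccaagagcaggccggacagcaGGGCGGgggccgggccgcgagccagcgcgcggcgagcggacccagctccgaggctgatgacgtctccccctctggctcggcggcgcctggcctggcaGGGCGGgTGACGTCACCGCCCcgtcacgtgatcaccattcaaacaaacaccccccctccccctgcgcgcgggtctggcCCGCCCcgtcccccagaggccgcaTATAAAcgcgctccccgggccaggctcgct
JUN: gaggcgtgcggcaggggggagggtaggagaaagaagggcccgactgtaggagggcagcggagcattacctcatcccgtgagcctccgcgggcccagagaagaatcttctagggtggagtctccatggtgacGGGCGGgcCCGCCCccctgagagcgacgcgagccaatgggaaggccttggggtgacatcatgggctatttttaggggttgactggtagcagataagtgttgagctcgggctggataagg
IER2: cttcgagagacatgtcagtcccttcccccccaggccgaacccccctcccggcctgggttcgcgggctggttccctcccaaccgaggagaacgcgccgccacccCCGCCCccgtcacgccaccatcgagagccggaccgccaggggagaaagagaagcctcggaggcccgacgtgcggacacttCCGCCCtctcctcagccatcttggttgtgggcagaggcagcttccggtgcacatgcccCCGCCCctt
HES1: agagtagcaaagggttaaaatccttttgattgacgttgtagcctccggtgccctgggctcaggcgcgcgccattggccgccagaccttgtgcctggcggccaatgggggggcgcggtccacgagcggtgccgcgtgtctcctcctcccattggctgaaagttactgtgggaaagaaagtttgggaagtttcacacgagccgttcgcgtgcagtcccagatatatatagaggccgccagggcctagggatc

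Windows of 300 bases, from 250 before to 50 after the start, were searched on both strands for 5 motifs. The search covered 35 members of 45 that matched the RefSeq table by symbol, and 27305 genes in all. For the motifs, all genes are these 27305 and not the 12269 measured. The shares of the members are thus set against genes not chosen by their expression. The cyclic AMP response element TGACGTCA, read by CREB and ATF factors, was in 4 members (JUND, DUSP1, ZFP36L1 and MAFF), 11.4% against 2.25% of all genes. In DUSP1 it lies 125 to 118 bases before the start. The letters of the TATA box, TATAAA, were in 12 members, 34.3% against 14%, at any position in the window. In DUSP1 they lie 30 to 25 bases before the start, and in SRF 14 to 19 bases after it on the other strand. Not every match is thus placed as a TATA box. The GC box GGGCGG was in 29, 82.9% against 48.3%; JUN and IER2 hold this motif in the printed stretch, and HES1 holds none of the 5. The AP-1 site (TGACTCA or TGAGTCA) was in 1, FOSL2, 2.86% against 6.05%. The CArG box (CC, a run of A or T, GG) was in 1, SRF, 2.86% against 1.6%. A gene counted when any of its listed starts had a match, and matches are of exact letters only. Sites outside the window were not searched, so a gene without a match may still hold the motif further away. In the printed stretches no 2 matches share a base, and in DUSP1 the cyclic AMP response element is followed directly by a GC box on the other strand (CCGCCC). The members DUSP5, CCN1, MCL1, KLF10, DUSP4, ZFP36L2, ARC, TRIB1, IER3 and FOSL1 were not matched.

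Of the pathway outside the members, the EGR and nuclear receptor factors, which are also immediate early genes, had 6 of 7 measured. EGR1, a zinc finger factor, fell between the numbers by 0.70 ± 0.19 (adjusted p = 0.0473), with 250, 381 and 419 on the arrays numbered 1 and 139, 160 and 393 on those numbered 2, where hIMP1 Dmut 2 overlaps the arrays numbered 1. The other 5 were not called, with a list median of -0.13. The call of EGR1 is 16.7% of the 6, where 2.49% of all genes were called lower. For the constructs the list had 0 calls by limma in each comparison. At an unadjusted p under 0.05 it had 2 lower for hIMP1 wt against mock, 1 in each direction for hIMP1 Dmut against mock, and 1 higher between the constructs.

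The kinases upstream and the factors they act on had 25 of 34 measured. That list had a median of 0.07 between the numbers. By limma 1 was called lower, CREB1 (-0.64 ± 0.13, adjusted p = 0.0185), which binds the cyclic AMP response element. Called higher was 1, MAP2K6, a kinase of p38 (0.71 ± 0.18, adjusted p = 0.0403). Each is 4% of the list, where 2.49% of all genes were called lower and 3.71% higher. A part of CREB1 in the differences of the members was not tested. Of 4 measured AP-1 partners outside the set, MAFG fell (-0.65 ± 0.15, adjusted p = 0.0314) and JDP2, a repressor that pairs with JUN, rose (1.01 ± 0.25, adjusted p = 0.0351). Each is 25% of those 4. Of 6 measured AP-1 target genes 1 was called (16.7%), VEGFA, the vascular growth factor, which rose by 0.55 ± 0.13 (adjusted p = 0.0292), and the median was 0.07. MMP1, MMP3, MMP10, PLAU and IL6, target genes often used as readouts of AP-1, were below the filter. None of these 3 lists had a call between the constructs by limma, nor a gene with an unadjusted p under 0.05. Their calls between the numbers are given at the main setting only.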

How the data were processed

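Total RNA of 6 samples (2 mock, 2 hIMP1 wt, 2 hIMP1 Dmut) was read on 1-colour Affymetrix arrays; groups follow the sample descriptions and numbers the sample titles. The authors deposited 1 linear intensity per probe set and array; how these were extracted and scaled is not given in the sources used here. The 2% trimmed mean was 150.02 on every array. Intensities were used as deposited, as log2 of the value plus 9.04 (the pooled lower quartile), without the 62 control probe sets. Probe sets with a mean log2 at or above the median (5.19) were kept, 27307 of 54675. The mean was taken over all 6 arrays, so a probe set dim in 1 group or number could be kept through the other arrays. The annotation gave 41091 probe sets 1 symbol, 1801 several and 11721 none; genes were named from single symbols. Genes were represented by the brightest kept probe set.

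Comparisons used limma 3.58.1 (R 4.3.3; lmFit, eBayes with intensity trend, two-sided, Benjamini-Hochberg over all kept probe sets, threshold 0.05): 1 fit with a coefficient per group, and 1 with group and number. The fit was tested on simulated data. Values on each array are given for a preset group of members and for the 5 members of largest moderated statistic, at the brightest kept probe set, in each comparison. Alternatives were scaling, offset, filter, prior, probe set rule, replicate block, arrays compared and each array left out. Within-group medians of the number difference and same-sign counts were chosen after seeing the data. The members and lists were chosen with earlier results of these data known. The files name no genome build; promoters are RefSeq's on GRCh38.p14.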

Additional observations from a re-analysis of the deposited data

How the results depend on the processing

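For the constructs, 0 member probe sets were called by limma under each alternative run, and the direction of the median changed only for hIMP1 wt against mock. That median, 0.07, was 0.12 under median scaling and ranged from -0.0824 to 0.20 with an array left out. For hIMP1 Dmut against hIMP1 wt, 0.13, it was 0.0131 under median scaling and ranged from 0.0199 to 0.22 with an array left out; for hIMP1 Dmut against mock, 0.15, the range was 0.02 to 0.32. With the replicate number as a block the counts called stayed at 0 and the medians at 0.07, 0.15 and 0.13. In that fit 6, 10 and 2 member probe sets had an unadjusted p under 0.05 in place of 0, 3 and 2. The same count over all probe sets was not taken under the block, so the rise cannot be read as particular to the members. Deviations from the group means correlated between arrays of the same number at 0.46 for mock and hIMP1 wt, 0.20 for mock and hIMP1 Dmut and 0.22 for hIMP1 wt and hIMP1 Dmut, which is a hint from the data and not from the labels that the numbers pair the samples. KLF2 between the constructs changed sign without hIMP1 Dmut replicate 1, where its range with an array left out was -0.0388 to 0.77.

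Between the numbers, the 14 member probe sets called became 5 without the filter, 0 without the intensity trend and 4 to 26 with an array left out, and the calls over all probe sets went from 1558 to 558, 0 and 291 to 5472. The cause of the loss was not tested, except that leaving out an array takes its partner out of this comparison and leaves 2 pairs. The median of -0.21 was -0.10 under median scaling (-0.22 relative to all genes), -0.28 with the mean of all kept probe sets of a gene, -0.34 within hIMP1 wt alone and -0.24 to -0.18 with an array left out. Dim probe sets lie near the background, where the offset sets the size of a change.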
